A study of Mus musculus with 8 samples.

Results

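The genes described here are 37 antiviral effector genes that mammalian cells induce in response to interferon. They were listed by name, a probe belonged to a member if the array gave it that name or if its RefSeq accession now carries it, and 36 of the 37 had at least 1 probe, with 51 probes in all. Of these 36 genes, 33 were tested among 18792 genes of the series, and the other 3 (Ifitm1, Tgtp1 and Ifi44) were not well above background on any array. Ifi205 had no probe under this rule. Herc6 was read from 2 probes that the array design calls Herc5, and Gbp6 from 2 probes that it calls Mpa2l. The probe that the design calls Gbp6 carries an accession now named Gbp7, and is given apart below.

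Gene expression was measured with one-colour arrays in mouse pre-B leukaemia cells 48 h after transfection of a synthetic duplex at 10 nM, with a change of medium at 8 h. The groups were 70Z/3 cells with miR-125b, 70Z/3 cells with miR-Neg, 18-81 cells with miR-125b and 18-81 cells with miR-Neg. Each group had 2 arrays, 1 from each of 2 independent experiments, so the number of arrays limits the precision of every value. 70Z/3 is labelled a pre-B lymphoblast line, and 18-81 a pre-B line made with Abelson virus. The stated aim was to find targets of miR-125b, and miR-Neg is the control duplex bought from the same maker. All 4 groups received a duplex and the same lipid reagent, and each line stands for 1 culture line, so a difference between the lines is a difference between these lines. The arrays do not measure mature miR-125b, whose delivery therefore has no check in these values.

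Interferons are secreted proteins that bind receptors on the same or neighbouring cells. The type I receptor activates the kinases JAK1 and TYK2, and STAT proteins that they phosphorylate join IRF9 to form the factor ISGF3. ISGF3 binds the interferon-stimulated response element (ISRE) in the promoters of antiviral genes, while type II interferon acts mainly through the gamma-activated site (GAS). Foreign RNA or DNA in a cell can start the pathway by inducing interferon, and many of the induced proteins act on viral entry, replication, translation or release. Some members, such as the immunity-related GTPases, act on intracellular bacteria and parasites.

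Because the duplex is the treatment and the ISRE is the promoter element that defines the response, both are shown. The mature miR-125b sequence in RefSeq (GRCm38.p6) has its seed, bases 2 to 8, in capitals, and the same sequence is encoded at chr9:41581940-41581961 and chr16:77646279-77646300.
mmu-miR-125b-5p: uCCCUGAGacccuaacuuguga
The next lines show stretches of promoter from RefSeq (GRCm38.p6) around a match to GAAANNGAAA, a short form of the ISRE, in members on which the results below turn. They are written in the direction of transcription, with the matched letters in capitals. A match on the other strand therefore reads as its reverse complement. The windows of Isg15 (chr4:156200865-156200906) and Rsad2 (chr12:26456547-26456588) belong to genes on the minus strand, and those of Ifit1 (chr19:34640769-34640810), Ifit3 (chr19:34583391-34583432), Gbp2 (chr3:142620588-142620629), Igtp (chr11:58199506-58199547) and Irgm2 (chr11:58214897-58214938) to genes on the plus strand.
Isg15: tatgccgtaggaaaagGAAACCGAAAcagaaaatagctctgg
Rsad2: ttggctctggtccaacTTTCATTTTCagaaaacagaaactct
Ifit1: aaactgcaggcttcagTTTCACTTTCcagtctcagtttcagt
Ifit3: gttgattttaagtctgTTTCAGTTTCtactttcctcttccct
Gbp2: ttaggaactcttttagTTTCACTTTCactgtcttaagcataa
Igtp: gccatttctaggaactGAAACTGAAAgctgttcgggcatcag
Irgm2: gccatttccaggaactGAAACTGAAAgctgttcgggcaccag
Each match shown lies 29 to 117 bases before the gene's start, and the windows of Igtp and Irgm2 differ in only a few letters. Isg15, Ifit1 and Ifit3 each hold more than 1 match, of which 1 is shown.

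A promoter was in the RefSeq table for 26 of the 37 members. In the 250 bases before the start, GAAANNGAAA was found on either strand in 14 of these 26 members. Some members have more than 1 promoter in the table, and counted by promoter the match was in 14 of 30 (46.7%), against 978 of 32851 promoters in the whole table (2.98%). The 14 were Ifit1, Ifit3, Isg15, Rsad2, Bst2, Ifitm2, Gbp2, Gbp3, Irgm1, Irgm2, Igtp, Tgtp1, Ifi203 and Ifi205. A short form of the GAS, TTCNNNGAA, was found in 5 of the 30 promoters (16.7%), those of Ifit2, Bst2, Irgm2, Igtp and Tgtp1, against 7.02% of all promoters. Bst2, Irgm2, Igtp and Tgtp1 held a match to each of these motifs. A match is a stretch of letters, not a measured binding site.

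The 8 arrays were not equally bright. The 75th percentile of intensity over spots, without control and outlier spots, was 696.7 and 499.8 in 70Z/3 with miR-125b (replicates 1 and 2), against 509.4 and 335.2 with miR-Neg. In 18-81 it was 712.7 and 561.2 with miR-125b, against 699.4 and 572.9 with miR-Neg. Replicate 2 of 70Z/3 with miR-Neg was the dimmest array, with 38.0% of its 55681 probes well above background, against 41.7 to 45.1% on the other 7. In 70Z/3 the brightness of the array therefore moved with the duplex in both replicate pairs, and its part in the results was not tested. Values below are relative intensities, meaning the intensity of a gene's probe divided by the 75th percentile of its array. For this divisor the percentile was taken over probes, after repeated spots were averaged, and not over spots as above. Differences are on the log2 scale ± the standard error of the limma model. A level can be compared between arrays for 1 gene, but not between genes.

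On each array the number of members well above background, of the 36 with a probe, differed mainly by line. It was 33 and 33 in 70Z/3 with miR-125b, 31 and 26 in 70Z/3 with miR-Neg, 24 and 24 in 18-81 with miR-125b, and 24 and 25 in 18-81 with miR-Neg. On all 8 arrays 23 members had a probe well above background. A further 7 (Ifit1, Mx1, Mx2, Rsad2, Cmpk2, Gbp2 and Rtp4) were above it on some array of 70Z/3 and on no array of 18-81. Within 70Z/3, 7 members (Ifit1, Ifit3, Mx1, Mx2, Rsad2, Gbp6 and Rtp4) were well above background on both miR-125b arrays but on fewer than both miR-Neg arrays. The share of all genes in either class was not counted, so whether these counts are unusual is not known. Of all probes, 45.1 and 42.6% were well above background in 70Z/3 with miR-125b, and 42.3 and 38.0% with miR-Neg. In 18-81 the shares were 44.8 and 42.0% with miR-125b, and 44.0 and 41.7% with miR-Neg.

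**Figure D1:**
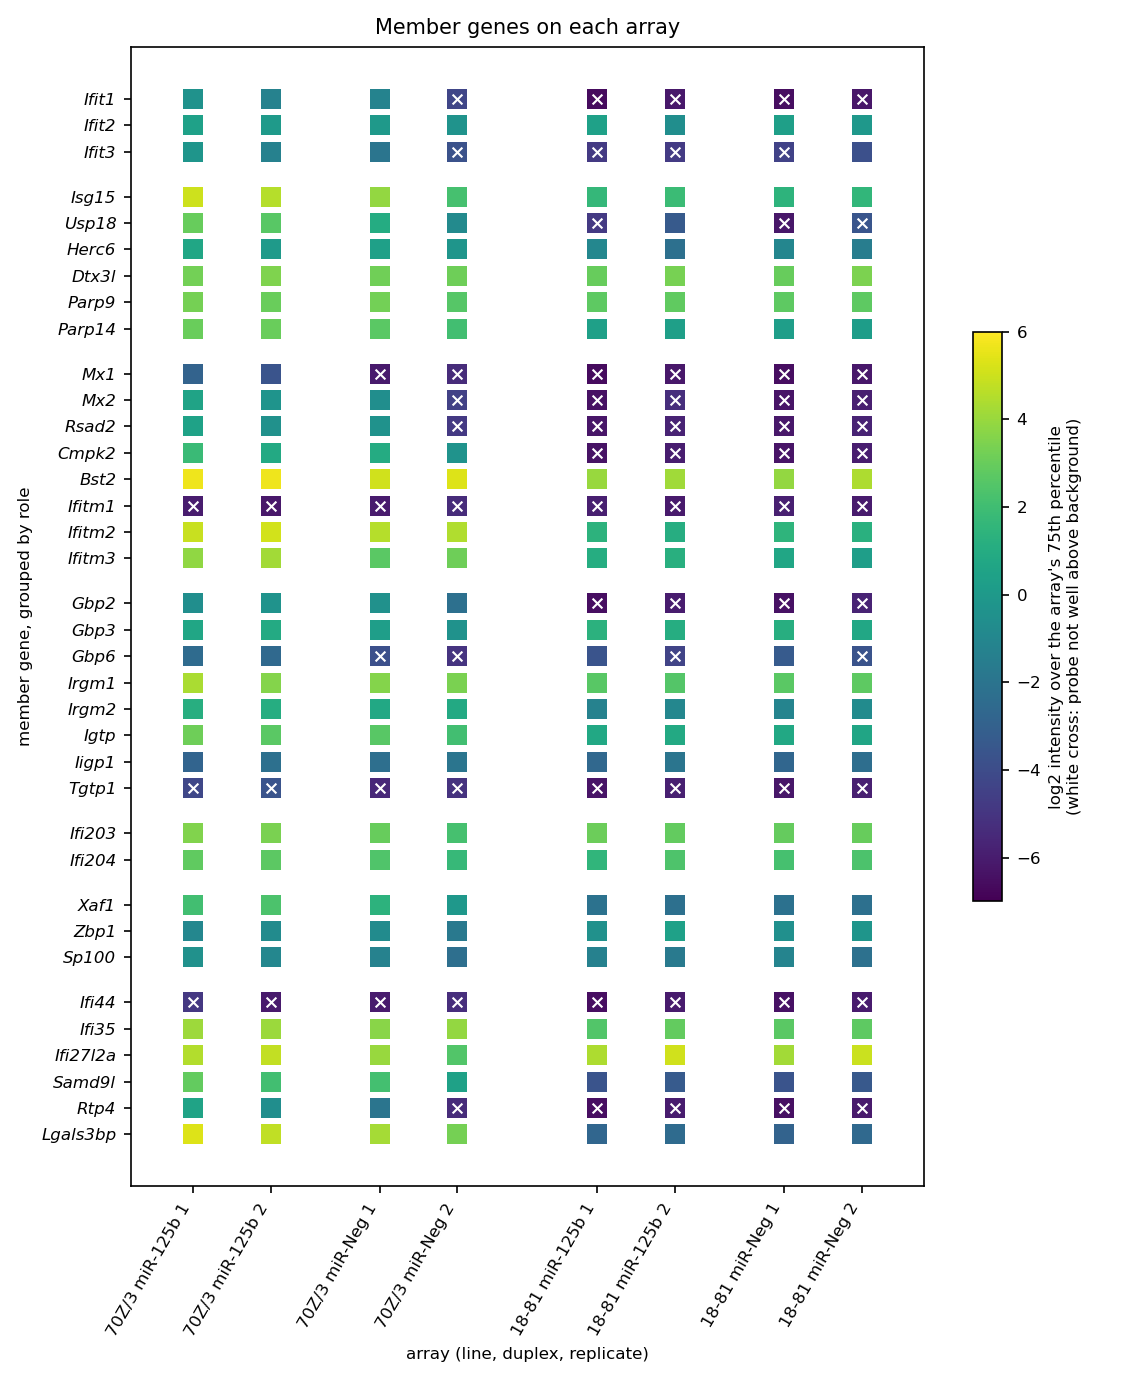
The 36 members with a probe, grouped by role from top to bottom, on the 8 arrays; colour gives the log2 of the intensity over the array's 75th percentile for the probe that stands for the gene, and a white cross marks a probe that was not well above background. In 18-81 the columns look alike and many cells carry a cross, while in 70Z/3 the miR-Neg replicate 2 column is the darkest of the 4.

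In 70Z/3 cells the members lay higher with miR-125b than with miR-Neg, by amounts that no single gene's test passed. Of the 33 tested members, 0 passed the threshold (limma, Benjamini-Hochberg over 18792 genes, adjusted p from 0.455 to 0.852), and 0% of all genes did in either direction. At an unadjusted p under 0.05, 14 members (42.4%) were higher and 0 lower, against 2.81% of all genes higher and 3.1% lower. The 14 were Ifit3, Isg15, Usp18, Parp14, Mx1, Mx2, Ifitm3, Gbp3, Gbp6, Ifi203, Xaf1, Ifi27l2a, Rtp4 and Lgals3bp. In 23 members (69.7%) both miR-125b arrays lay above both miR-Neg arrays, against 14.9% of all genes, and in 0 members both lay below, against 22.8%. Within replicate pair 1 the miR-125b array was higher in 30 of the 33, against 43% of all genes, and within pair 2 in 32 of the 33, against 37.6%.

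Of the tested members, 6 (Ifit1, Ifit3, Mx1, Mx2, Rsad2 and Rtp4) had passed the filter on low intensity only through the miR-125b arrays of 70Z/3, and so had to be higher there, as had the Gbp6 probe used. Counts that do not depend on this filter are therefore given too. Among 14627 genes whose probe was well above background on all 8 arrays, both miR-125b arrays lay above both miR-Neg arrays in 17 of 23 members, against 12.5% of genes. At an unadjusted p under 0.05, 8 of these 23 were higher (Isg15, Parp14, Ifitm3, Gbp3, Ifi203, Xaf1, Ifi27l2a and Lgals3bp), against 1.4% of genes. The miR-125b array was higher in 21 of these 23 members in pair 1, against 41.6% of genes, and in 22 of 23 in pair 2, against 32.9%. With only probes well above background on all 8 arrays, the median difference of the 23 members was 0.74 above that of all genes. With no filter on intensity, the median difference of the 36 members with a probe was 1.29 above the median of 36315 genes. This was 0.97 in pair 1 and 1.84 in pair 2, and 35 of the 36 members lay above the median of all genes. The members' own median was 0.90 with or without the filter, while the median of all genes was −0.39 without it. With the filter the 33 members stood 1.04 above all genes (0.68 in pair 1 and 1.47 in pair 2), a 2.06-fold relative difference, where the median of all genes itself differed by −0.14.

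The Ifit proteins bind foreign or unmethylated RNA ends and block its translation. Ifit1 had relative intensities of 0.748 and 0.423 with miR-125b, against 0.443 and 0.0521 with miR-Neg, where the second miR-Neg array was not well above background. Its groups overlapped, with a difference of 1.89 ± 0.86. Ifit3, which stabilises IFIT1 in human cells, was at 0.847 and 0.401 with miR-125b, against 0.26 and 0.0757 with miR-Neg, again with 1 miR-Neg array not well above background. Here both miR-125b arrays were the higher ones (2.05 ± 0.60, adjusted p = 0.749). Ifit2 was at 1.32 and 1.01 with miR-125b, against 0.988 and 0.796 with miR-Neg (0.38 ± 0.39), so its 4 arrays were close together without overlapping. The Ifit genes are a family of close relatives, and a probe may read more than 1 of them.

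Isg15 encodes a ubiquitin-like protein that is attached to other proteins, and Usp18 the protease that removes it and that also dampens signalling at the type I receptor. Isg15 was at 31.8 and 23.4 with miR-125b, against 14.8 and 4.49 with miR-Neg. All 4 arrays were well above background, the groups did not overlap, and the miR-Neg replicates differed from each other more than the miR-125b replicates did (1.74 ± 0.52, adjusted p = 0.749). The Isg15 probe lies at chr4:155573649-155573708 (mm9, as the files give it), and the second Isg15 probe gave 1.84. Usp18 was at 7.98 and 6.07 with miR-125b, against 2.03 and 0.57 with miR-Neg, a difference of 2.69 ± 0.92 (adjusted p = 0.761) with no overlap. Herc6, the main ISG15 ligase of mouse cells, overlapped between the groups, at 1.61 and 1.03 with miR-125b and 1.26 and 0.848 with miR-Neg (0.32 ± 0.47). Its second probe, also well above background on all 8 arrays, did not overlap, at 1.12 and 0.95 with miR-125b, against 0.728 and 0.433 with miR-Neg (0.88).

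The ubiquitin ligase Dtx3l and its partner Parp9, with the ADP-ribosyltransferase Parp14, act in the same branch. Parp14 was at 8.23 and 8.16 with miR-125b, against 6.26 and 4.11 with miR-Neg, without overlap (0.69 ± 0.29). Dtx3l was at 9.22 and 11.2 with miR-125b, against 9.17 and 8.82 with miR-Neg (0.18 ± 0.30), and Parp9 at 9.79 and 8.08, against 9.44 and 5.9 (0.25 ± 0.31). For Dtx3l and Parp9 the difference was smaller than its standard error. Over the 6 members of this role group the median difference was 0.50, from 0.18 to 2.69, and 0 passed the test.

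Effectors that act on viral entry, replication and release came next. Mx1, a nuclear GTPase that blocks influenza virus in mice, was at 0.134 and 0.08 with miR-125b, where both arrays were well above background, and at 0.0143 and 0.0235 with miR-Neg, where neither was. It was at least 1.64-fold higher with miR-125b, a bound set by the lowest signal that counts as above background (adjusted p = 0.455), and without miR-Neg replicate 1 no fold above 1 could be given. Mx2, a cytoplasmic GTPase, was at 1.45 and 0.84 with miR-125b, against 0.638 and 0.044 with miR-Neg (2.72 ± 1.07). Rsad2 (viperin), a radical SAM enzyme that makes a chain-terminating nucleotide, was at 1.39 and 0.733 with miR-125b, against 0.735 and 0.035 with miR-Neg (2.65 ± 1.17). In both genes the second miR-Neg array was not well above background and lay far below the first, and for Rsad2 the first miR-Neg array reached the lower miR-125b array, so that the groups overlapped.

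Cmpk2, a mitochondrial nucleotide kinase whose gene neighbours Rsad2, was well above background on all 4 arrays of 70Z/3, at 3.53 and 1.8 with miR-125b and 1.92 and 0.791 with miR-Neg. These overlapped (1.03 ± 0.50), and the second Cmpk2 probe gave 0.85. Bst2 (tetherin), which holds budding virus at the cell surface, was at 51.3 and 50.9 with miR-125b, against 33.4 and 40.1 with miR-Neg (0.48 ± 0.29). Ifitm2 and Ifitm3, membrane proteins that block the fusion of viruses in endosomes, did not overlap between the groups either. Ifitm2 was at 30.3 and 34.5 with miR-125b, against 23.3 and 21.5 with miR-Neg (0.53 ± 0.27), and Ifitm3 at 14.1 and 18.5, against 6.45 and 8.78 (1.10 ± 0.32, adjusted p = 0.749). For Ifitm3 the difference was nearly the same in each pair, 1.13 and 1.08. Ifitm1, of the same family, stayed below background throughout.

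Among the GTPases that attack intracellular membranes, Gbp3 was at 1.62 and 1.88 with miR-125b, against 1.17 and 0.745 with miR-Neg, without overlap (0.90 ± 0.33). Gbp2, at 0.639 and 0.788 with miR-125b and 0.705 and 0.207 with miR-Neg, had opposite directions in the pairs (−0.14 and 1.93). Gbp6 was at 0.174 and 0.162 with miR-125b and at 0.0704 and 0.0305 with miR-Neg, where neither array was well above background. It was at least 1.91-fold higher with miR-125b (adjusted p = 0.749). For the second Gbp6 probe, also with neither miR-Neg array well above background, the group means differed by 1.15, which is not a measured size. The probe that the array names Gbp6, now assigned to Gbp7, was at 1.17 and 1.02 with miR-125b, against 0.74 and 0.139 with miR-Neg. Only 1 of these 2 miR-Neg arrays was well above background for it.

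The immunity-related GTPases differed less. Irgm1, a regulator of this family that protects the cell's own membranes, was at 20.3 and 11.8 with miR-125b and 12 and 10.3 with miR-Neg, which overlapped (0.48 ± 0.32), as did its second probe (0.75). Igtp (Irgm3), of the same regulatory branch, was at 8.85 and 6.4 with miR-125b, against 6.09 and 4.2 with miR-Neg (0.57 ± 0.31). Irgm2 was at 2.18 and 2.1 with miR-125b, against 1.72 and 1.79 with miR-Neg (0.29 ± 0.28). Neither Igtp nor Irgm2 overlapped between the groups. Iigp1, an effector GTPase that disrupts the vacuoles of parasites, went the other way: it was at 0.137 and 0.211 with miR-125b and 0.201 and 0.262 with miR-Neg (−0.43 ± 0.37), the lowest difference of the 33 members. Another effector, Tgtp1, was below background throughout.

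The Ifi200 proteins bind nucleic acids in the nucleus and cytoplasm. Ifi203 was at 11.7 and 10.7 with miR-125b, against 8.02 and 4.47 with miR-Neg (0.90 ± 0.33), and Ifi204 at 7.01 and 6.53, against 5.44 and 3.23 (0.69 ± 0.38). In each the groups did not overlap, and the miR-Neg replicates lay further apart than the miR-125b replicates. The other 3 Ifi203 probes gave 0.31, 0.51 and 0.58, the last from a probe well above background on only 3 of the 8 arrays.

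Of the genes tied to cell death and nuclear bodies, Xaf1, which binds the apoptosis inhibitor XIAP, was at 4.2 and 5.06 with miR-125b, against 2.54 and 0.944 with miR-Neg. It did not overlap between the groups (1.58 ± 0.44, adjusted p = 0.749), and its second probe gave 0.98. Sp100, a component of PML nuclear bodies, was at 0.714 and 0.514 with miR-125b, against 0.418 and 0.206 with miR-Neg (1.05 ± 0.47). Zbp1, the sensor of Z-form nucleic acids that starts necroptosis, overlapped, at 0.506 and 0.577 with miR-125b and 0.579 and 0.3 with miR-Neg (0.38 ± 0.42).

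Rtp4, a receptor-transporting chaperone, was at 1.45 and 0.649 with miR-125b, against 0.256 and 0.0237 with miR-Neg, the second of which was not well above background. The groups did not overlap (adjusted p = 0.749), but with 1 of the 2 miR-Neg arrays undetected the fitted 3.64 ± 0.96 is not a measured size. Lgals3bp, a secreted glycoprotein that binds galectin 3, was at 40.2 and 26.8 with miR-125b, against 19.2 and 9.83 with miR-Neg (1.26 ± 0.39, adjusted p = 0.749). Ifi27l2a, a small membrane protein, was at 22.2 and 28.3 with miR-125b, against 15.7 and 5.61 with miR-Neg (1.42 ± 0.52). For both of these the groups did not overlap. Samd9l, a cytoplasmic protein that restrains growth and viral translation, overlapped at 7.32 and 4.2 with miR-125b and 4.35 and 1.33 with miR-Neg (1.20 ± 0.54). Ifi35 was at 17.3 and 16.7 with miR-125b, against 12.8 and 14.8 with miR-Neg (0.31 ± 0.27), and Ifi44 was below background throughout.

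**Figure D2:**
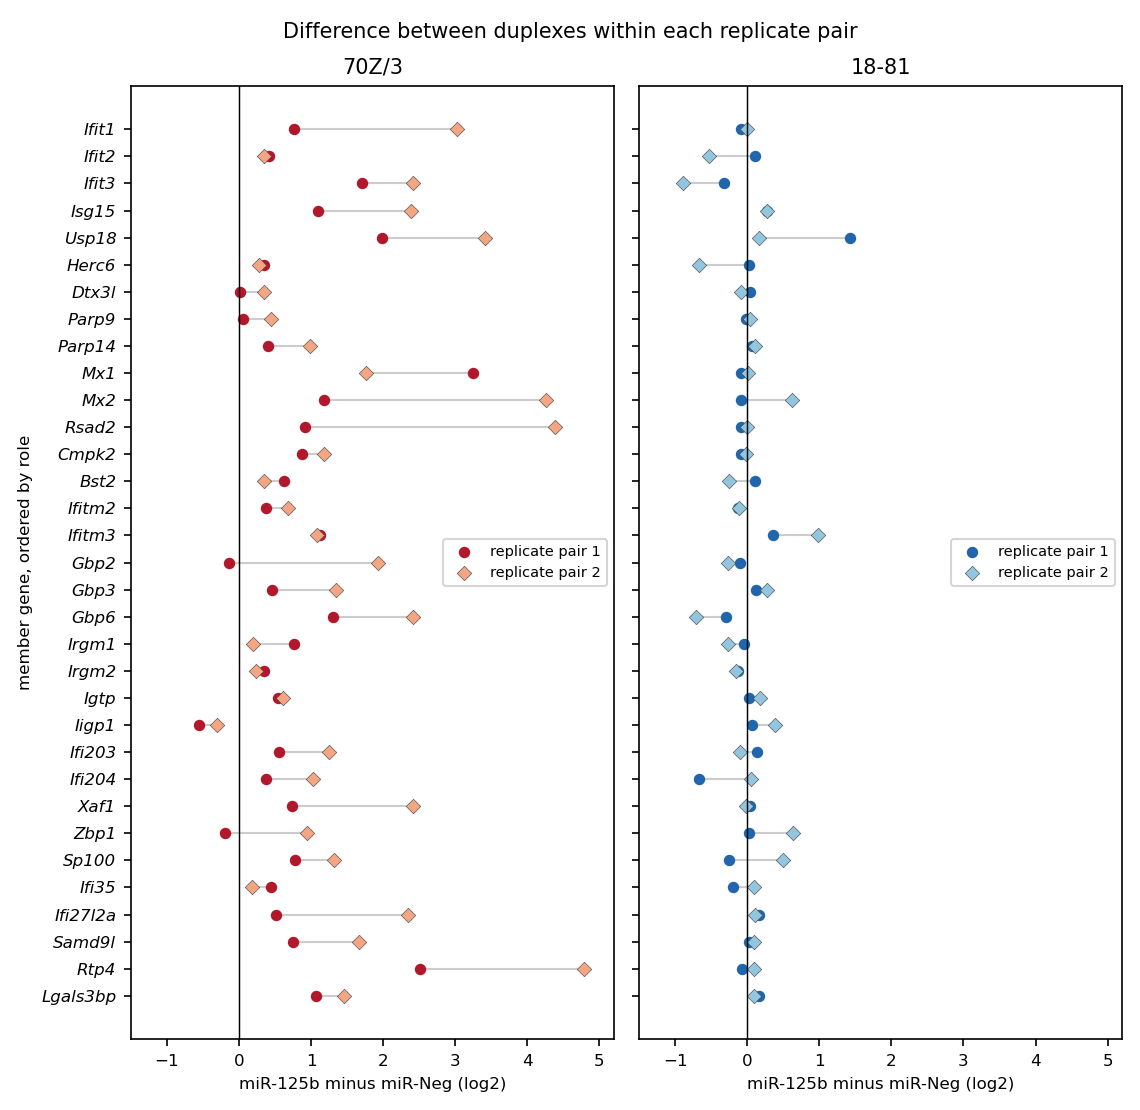
Differences between miR-125b and miR-Neg on the log2 scale within replicate pair 1 (circles) and pair 2 (diamonds), for the 33 tested members in 70Z/3 (left) and 18-81 (right); a grey line joins the pairs of a gene. In 70Z/3 nearly all points lie right of 0, with pair 2 often further out, from −0.31 to 4.78, while in 18-81 the points lie on both sides of 0; the point at 4.78 is Rtp4, whose miR-Neg array there was not well above background.

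For these genes the gap between the replicates of 70Z/3 with miR-Neg was about as large as the gap between the duplexes. Replicate 2 lay below replicate 1 in 27 of the 33 tested members, against 34.8% of all genes, and in 18 of the 23 members well above background on all arrays, against 30.9%. The median of replicate 2 minus replicate 1 was −1.13 relative to all genes in this group. It was −0.41 in 70Z/3 with miR-125b, 0.02 in 18-81 with miR-125b and 0.01 in 18-81 with miR-Neg. Among members well above background on both of these arrays, Usp18 differed by −1.83, Gbp2 by −1.77, Isg15 by −1.72 and Samd9l by −1.71, while Ifitm3 at 0.44 ran the other way. Rsad2, Mx2, Rtp4 and Ifit1 were well above background in replicate 1 and not in replicate 2, so the size of their gap was not measured.

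The size of the 70Z/3 difference therefore depended on which miR-Neg array was used. Without miR-Neg replicate 2 the members stood 0.46 above all genes, and without miR-Neg replicate 1 they stood 1.60 above, against 1.04 with both. Parp9 (−0.09) and Zbp1 (−0.10) had the opposite sign without replicate 2. Replicate 2 was also the dimmest array, and it differed in other marker genes: the 10 T-cell markers summed to a relative intensity of 167 there, against 54.7 in replicate 1 and 45.7 to 50.8 with miR-125b, most of it from the kinase Lck at 133. The 14 B-cell precursor markers summed to 2509 there, against 1567 in replicate 1 and 1277 to 1576 with miR-125b. The part of brightness and of these genes in the difference between the replicates was not tested.

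**Figure D3:**
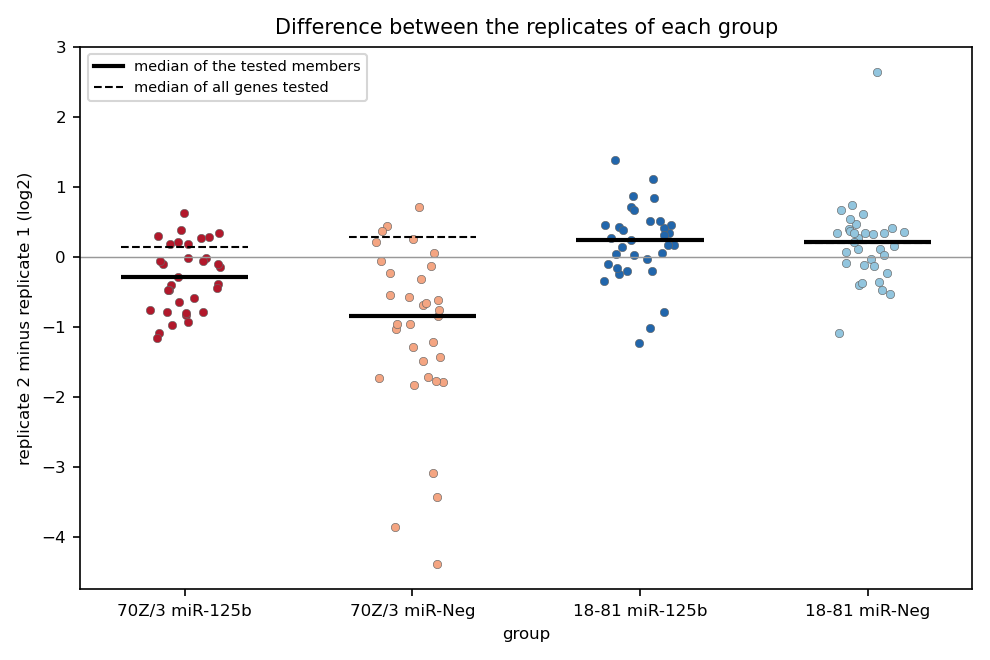
Replicate 2 minus replicate 1 on the log2 scale for each of the 33 tested members (points) in the 4 groups, with the median of the members (solid bar) and of all genes tested (dashed bar). In 70Z/3 with miR-Neg most members lie below 0, down to −4.39 for Rsad2, which was not well above background in replicate 2, while in both 18-81 groups the solid and dashed bars nearly coincide.

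In 18-81 cells the same genes were close to level between the duplexes. Of the 33 tested members, 0 passed the threshold (limma, Benjamini-Hochberg over 18792 genes), as did 0% of all genes in either direction. At an unadjusted p under 0.05, 0 members were higher and 0 lower, against 0.623% of all genes higher and 0.612% lower. Both miR-125b arrays lay above both miR-Neg arrays in 4 members (Isg15, Parp14, Ifitm3 and Igtp), against 8.33% of all genes, and below both in 2 (Ifit3 and Irgm1), against 4.86%. The members' median was −0.03 relative to all genes, and −0.01 in each pair. With no filter on intensity the 36 members with a probe were level with all genes.

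Ifitm3 in 18-81 was at 2.1 and 2.32 with miR-125b, against 1.63 and 1.18 with miR-Neg (0.67 ± 0.32), the largest difference there among members above background in both groups. Isg15 was at 3.2 and 3.6 with miR-125b, against 2.65 and 2.96 with miR-Neg (0.28 ± 0.52). Parp14 was at 1.25 and 1.22, against 1.2 and 1.13 (0.09 ± 0.29). These arrays did not overlap, but the Isg15 and Parp14 differences were smaller than their standard errors. Usp18 was well above background on 1 of the 2 miR-125b arrays and on neither miR-Neg array, so no fold is given. Ifit1, Mx1, Mx2, Rsad2, Cmpk2, Gbp2 and Rtp4 were below background with either duplex.

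The difference between the lines in their response to miR-125b was tested directly, as the 18-81 difference minus the 70Z/3 difference. No member passed (0 of 33, limma, adjusted p from 0.931 to 0.987), and 0% of all genes did. At an unadjusted p under 0.05 the response was lower in 18-81 in 5 members (Ifit3, Mx1, Gbp6, Xaf1 and Rtp4), against 1.29% of all genes, and higher in 0, against 1.97%. Xaf1, which was well above background on all 8 arrays, had a difference of responses of −1.56 ± 0.63. Ifit3 stood at −2.66 ± 0.85 and Rtp4 at −3.63 ± 1.36, in both cases with 18-81 arrays not well above background. For such genes a difference in 18-81 could not be measured. Ifit3, Mx1, Rtp4 and the Gbp6 probe used had passed the intensity filter only through 70Z/3 with miR-125b, where they are high. Among the 23 members well above background on all 8 arrays the count was 1 (Xaf1), against 0.608% of such genes. All of these results share the 70Z/3 miR-Neg arrays described above. Averaged over both lines, 8 members were higher with miR-125b at an unadjusted p under 0.05, against 1.48% of all genes. The 8 were Isg15, Usp18, Mx1, Ifitm3, Gbp3, Xaf1, Rtp4 and Lgals3bp, of which Mx1 and Rtp4 had passed the filter only through 70Z/3 with miR-125b. Among the 23 members well above background on all 8 arrays the count was 5, against 0.438% of such genes.

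With the control duplex, many of the antiviral genes were lower in 18-81 than in 70Z/3, and this was the comparison in which single genes passed the test. Of the 33 tested members, 15 (45.5%) were lower in 18-81 at an adjusted p under 0.05, against 11.5% of all genes, and 0 were higher, against 10.2%. Of the 15, Ifit1 and Mx2 had passed the intensity filter only through 70Z/3 with miR-125b. Usp18, Cmpk2 and Gbp2 had passed it only through 70Z/3, the line where they are high. With only probes well above background on all 8 arrays, 10 of 23 members passed, all lower in 18-81. In that fit 1869 of 14654 genes passed in either direction. In 22 members all 4 arrays of 18-81 lay below all 4 arrays of 70Z/3, whatever the duplex, against 17.4% of all genes. Among the 23 members well above background on all arrays this held for 13, against 14.5% of such genes. In 1 member, Zbp1, all 18-81 arrays lay above all 70Z/3 arrays, against 19.4% of all genes. The members' median was −1.30 relative to all genes, −1.85 in pair 1 and −0.80 in pair 2. With no filter on intensity it was −0.75 over the 36 members with a probe, −0.91 in pair 1 and −0.06 in pair 2. Markers moved between the lines too: with miR-Neg the B-cell precursor markers summed to 849 and 984 in 18-81, against 1567 and 2509 in 70Z/3. Of the plasmacytoid dendritic cell markers 1 passed as higher in 18-81, Cox6a2 at 200 and 361 against 38.7 and 14.2 in 70Z/3, and 1 as lower, Lair1 (−3.90 ± 0.44, adjusted p = 0.000351). Lair1 had passed the intensity filter only through 70Z/3, the line where it is high. Siglech (0.17 ± 0.28) and Pacsin1 (−0.51 ± 0.31) did not pass, and the median of that list was −0.17. Their part in the result was not tested.

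Lgals3bp was at 0.131 and 0.165 in 18-81 with miR-Neg, against 19.2 and 9.83 in 70Z/3 with miR-Neg, all well above background. It was 93.6-fold lower in 18-81 (−6.55 ± 0.39, adjusted p = 9.36e-06), and no array of one line came near those of the other. The second Lgals3bp probe, well above background on all 8 arrays, gave a smaller difference of −4.88. Samd9l was at 0.08 and 0.0927 in 18-81, against 4.35 and 1.33 in 70Z/3, 28-fold lower (−4.81 ± 0.54, adjusted p = 0.000361). Its second probe was well above background on the 70Z/3 arrays but on no 18-81 array, where it was at 0.0298 and 0.0345 with miR-Neg. Xaf1 was at 0.225 and 0.209 in 18-81, against 2.54 and 0.944 in 70Z/3 (−2.84 ± 0.44, adjusted p = 0.00233). The second Xaf1 probe was well above background on the 70Z/3 arrays and on no 18-81 array.

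Ifitm2 was at 2.75 and 2.37 in 18-81, against 23.3 and 21.5 in 70Z/3 (8.78-fold lower, adjusted p = 6.6e-05). Ifitm3 was at 1.63 and 1.18 in 18-81, against 6.45 and 8.78 in 70Z/3 (5.43-fold lower, adjusted p = 0.000782). Both were thus detected in 18-81 at a fraction of the 70Z/3 level. Bst2, at 14.7 and 21.4 in 18-81 against 33.4 and 40.1 in 70Z/3, was 2.06-fold lower (adjusted p = 0.039). Parp14 was at 1.2 and 1.13 in 18-81, against 6.26 and 4.11 in 70Z/3 (4.35-fold lower, adjusted p = 0.00113). Of the GTPases, Irgm2 was 3.44-fold lower (adjusted p = 0.00214) and Igtp 3.09-fold lower (adjusted p = 0.00636) in 18-81. Ifi35, which partners the interferon-induced protein NMI, was 2.09-fold lower (adjusted p = 0.0265).

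For 5 of the 15, the 18-81 arrays with miR-Neg were not well above background, so their folds are bounds. Cmpk2, at 0.0126 and 0.0161 in 18-81 against 1.92 and 0.791 in 70Z/3, was at least 21-fold lower (adjusted p = 3.92e-05). Usp18, at 0.0136 and 0.0852 against 2.03 and 0.57, was at least 16.1-fold lower (adjusted p = 0.00575). Gbp2, at 0.0115 and 0.0184 against 0.705 and 0.207, was at least 6.51-fold lower (adjusted p = 0.00048). In these 3 genes both 70Z/3 miR-Neg arrays were well above background, but the bounds moved with the array used. Without 70Z/3 miR-Neg replicate 1 they were 13.5-fold for Cmpk2, 8.56-fold for Usp18 and 3.53-fold for Gbp2, and without replicate 2 they were 32.7-fold, 30.4-fold and 12-fold in the same order. For Mx2 (at least 2.86-fold lower, adjusted p = 0.0496) and Ifit1 (at least 2.59-fold lower, adjusted p = 0.0182) only 1 of the 2 control arrays of 70Z/3 was well above background, and without that array, replicate 1, no fold above 1 could be given. Without replicate 2 the bounds were 10.9-fold for Mx2 and 7.55-fold for Ifit1.

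The calls for Lgals3bp, Samd9l, Cmpk2, Usp18, Gbp2, Ifitm2, Ifitm3, Xaf1, Parp14, Irgm2 and Igtp held in every alternative in which they could be tested. The Mx2 call was made in 8 of 17 alternatives, the Bst2 call in 9 of 18, the Ifi35 call in 12 of 18 and the Ifit1 call in 15 of 17, where it was lost without either 18-81 miR-Neg array.

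Several members were not lower in 18-81. Ifi27l2a was at 18.5 and 31 in 18-81, against 15.7 and 5.61 in 70Z/3 (1.36 ± 0.52, adjusted p = 0.113). Gbp3 was at 2.24 and 1.7 in 18-81, against 1.17 and 0.745 in 70Z/3 (1.06 ± 0.33, adjusted p = 0.0539), and with both duplexes together its arrays overlapped between the lines. The Gbp3 difference passed in 8 of the alternatives, with an adjusted p of 0.0187 with the replicate block. Zbp1 was at 0.703 and 0.847 in 18-81, against 0.579 and 0.3 in 70Z/3 (0.89 ± 0.42, adjusted p = 0.188). None of these passed the test as reported, though Ifi27l2a did without 70Z/3 miR-Neg replicate 1 (2.10, adjusted p = 0.0229). Dtx3l (0.02 ± 0.30), Parp9 (−0.12 ± 0.31), Ifit2 (0.28 ± 0.39), Ifi203 (0.38 ± 0.33), Ifi204 (0.18 ± 0.38) and Sp100 (0.12 ± 0.47) differed by little more than a standard error or less. Isg15 (−1.54 ± 0.52, adjusted p = 0.0724), Rsad2 (adjusted p = 0.0856) and Herc6 (−1.35 ± 0.47, adjusted p = 0.0839) lay lower in 18-81 on all arrays without passing. With the replicate block Herc6 (adjusted p = 0.00598) and Isg15 (adjusted p = 0.0466) passed, as did Gbp6, higher in 18-81 (adjusted p = 0.0482). For Gbp6 neither 70Z/3 miR-Neg array was well above background, so the fitted 0.94 is not a measured size, and its bound was 1.01-fold. With the block within each line Rsad2 (adjusted p = 0.0266), Rtp4 (adjusted p = 0.0167) and Ifit3 (adjusted p = 0.0163) passed too, all lower in 18-81. No 18-81 array was well above background for Rsad2 (bound 2.73-fold) or Rtp4 (bound 1.33-fold). Without 70Z/3 miR-Neg replicate 1 no fold above 1 could be given for either. For Ifit3 only 1 miR-Neg array of each line was well above background.

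**Figure D4:**
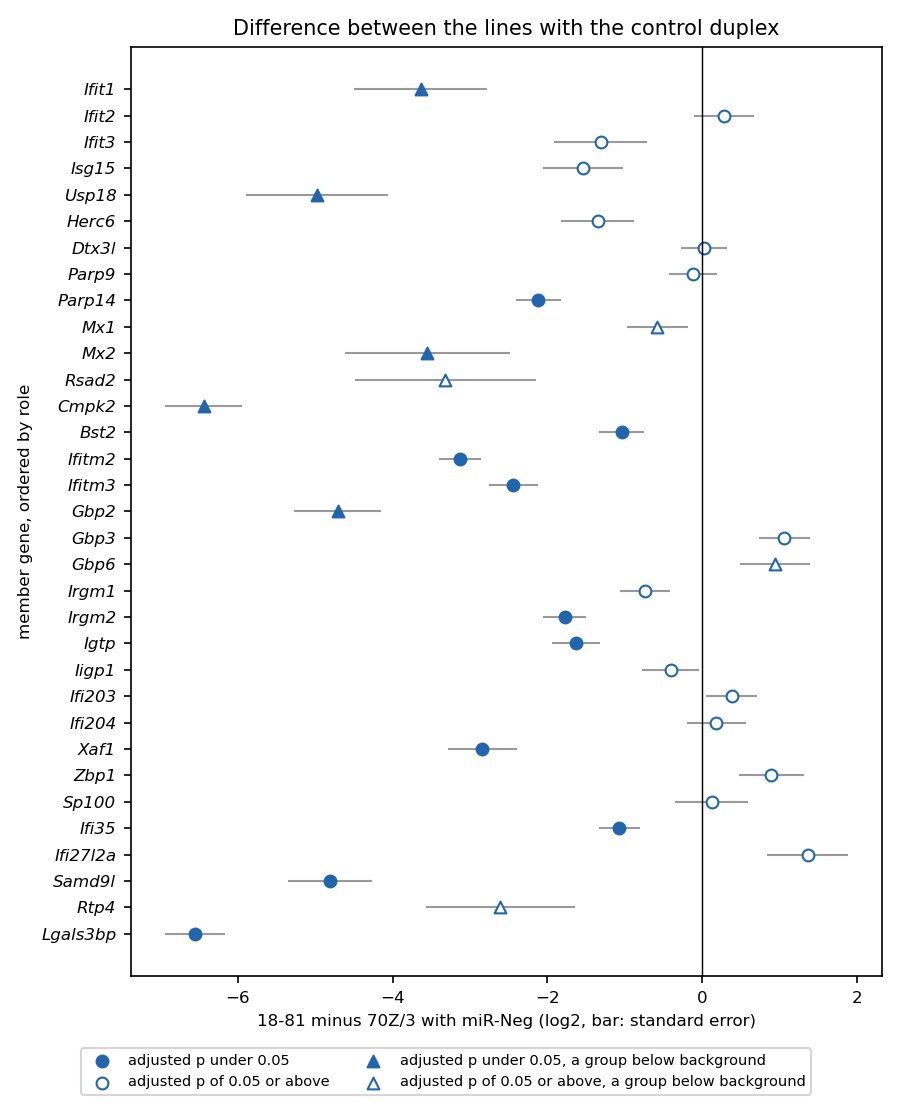
Difference between 18-81 and 70Z/3 with the miR-Neg duplex on the log2 scale (point, with the standard error of the limma model as a bar) for the 33 tested members, filled where the adjusted p was under 0.05. Triangles mark genes with a group not well above background, whose fitted difference is not a bound; the filled symbols run from −1.04 for Bst2 to −6.55 for Lgals3bp, all left of 0.

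The genes that make and relay the interferon signal were measured beside the effectors. Of 14 interferon ligand genes, 12 had a probe and 7 of these were well above background on no array, among them Ifnb1, the type I interferon that cells usually make first, and Ifng. Ifna1 was above it on all 8 arrays, at 0.127 and 0.166 in 70Z/3 with miR-125b, against 0.138 and 0.154 with miR-Neg (−0.01 ± 0.32). Ifna2 and Ifna5 were above it on both miR-125b arrays of 70Z/3 and on neither miR-Neg array. Their intensities overlapped (0.27 ± 0.38 and 0.05 ± 0.42). Ifna12 was above it on 1 miR-125b array and on neither miR-Neg array, and was higher in both pairs (0.81 ± 0.35). In 18-81 Ifna2, Ifna5 and Ifna12 were above it on both miR-125b arrays and 1 miR-Neg array. Of the 4 tested ligand genes 0 passed between the duplexes. The summed relative intensity of the ligand list was 0.491 and 0.594 in 70Z/3 with miR-125b, against 0.469 and 0.583 with miR-Neg, so the groups overlapped. In 18-81 it was 0.532 and 0.714 with miR-125b, against 0.495 and 0.569 with miR-Neg. The Ifna genes are near-identical copies, and a probe may read several of them.

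All 15 receptor and signalling genes were tested, and 0 passed between the duplexes in either line. Their median difference in 70Z/3 was 0.11. Irf9, the DNA-binding part of ISGF3, was at 12.4 and 11.9 with miR-125b, against 7.63 and 2.16 with miR-Neg in 70Z/3 (1.58 ± 0.52), and Stat2 at 5.5 and 6.36, against 4.03 and 2.38 (0.93 ± 0.32). Irf7, the factor that amplifies type I interferon production, was at 1.91 and 0.79 with miR-125b, against 0.594 and 0.111 with miR-Neg (adjusted p = 0.751). Only 1 of its 2 miR-Neg arrays was well above background, so the fitted 2.26 ± 0.75 is not a measured size. It had passed the intensity filter only through 70Z/3 with miR-125b, where it is high. Irf9, Stat2 and Irf7, themselves induced by interferon, showed the pattern of many effectors: no overlap between the groups, and miR-Neg replicate 2 the lowest of the 4 arrays. Irf1, of the same list, was level between the duplexes in 70Z/3 (0.02 ± 0.32). The type I receptor chain gene Ifnar1 was level, at 2.13 and 2.32 with miR-125b and 2.01 and 1.88 with miR-Neg (0.19 ± 0.27).

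Between the lines with miR-Neg, 3 of the 15 signalling genes passed as higher in 18-81, against 10.2% of all genes. Another 3 passed as lower, against 11.5%. Socs1 and Socs3, feedback inhibitors of the JAK kinases, were higher in 18-81. Socs1 was at 40.8 and 66.7 in 18-81, against 0.369 and 0.484 in 70Z/3 (6.95 ± 0.40, adjusted p = 7.77e-06). Socs3 was at 2.03 and 1.68 in 18-81, against 0.0168 and 0.0278 in 70Z/3, where the arrays were not well above background (adjusted p = 5.19e-06). Socs3 had passed the intensity filter only through 18-81, the line where it is high. Ifngr2, a chain of the type II receptor, was also higher (1.56 ± 0.26, adjusted p = 0.00358). Irf7 was at 0.0108 and 0.0139 in 18-81, not well above background, against 0.594 and 0.111 in 70Z/3 (adjusted p = 0.00372). Only 1 of the 2 miR-Neg arrays of 70Z/3 was well above background for it. It had passed the intensity filter only through 70Z/3 with miR-125b. Irf1, a factor induced by type II interferon (−1.15 ± 0.32, adjusted p = 0.039), and the kinase gene Jak1 (adjusted p = 0.0438) were lower in 18-81. Irf9 at −0.79 ± 0.52 and Stat2 at 0.88 ± 0.32 did not pass.

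Markers of other cells were read on the same arrays, since cells such as plasmacytoid dendritic cells make interferon. Of 8 plasmacytoid dendritic cell markers 4 were well above background on no array, and their sums were 234 and 386 in 70Z/3 with miR-125b, against 235 and 214 with miR-Neg. That sum moved with Cox6a2, at 42.5 and 172 with miR-125b, against 38.7 and 14.2 with miR-Neg, while Siglech differed by 0.07 ± 0.28. Of 12 myeloid markers 3 were above it on no array, and their sums were 93.6 and 105 with miR-125b, against 117 and 126 with miR-Neg. Within that list Lyz2 was well above background in 70Z/3 with miR-125b only, at 0.0624 and 0.162 against 0.0159 and 0.0259 with miR-Neg, and so was Mpo. Cd33 was at 0.421 and 0.686 with miR-125b, against 0.192 and 0.232 with miR-Neg, while Csf1r ran the other way, at 0.862 and 1.34 against 2.28 and 3.61. Stromal markers summed to 78.9 and 95 in 70Z/3 with miR-125b, against 53.7 and 84.6 with miR-Neg, a sum in which Vim was the brightest (−0.39 ± 0.32). Within it Sparc, a secreted matrix glycoprotein, was at 22.9 and 49.4 with miR-125b, against 0.934 and 1.95 with miR-Neg (4.64 ± 0.49, adjusted p = 0.143), with 4.61 and 4.66 in the pairs, the largest difference between the duplexes in 70Z/3 among the signalling and marker genes tested. It did not pass the test. Erythroid markers summed to 0.428 and 0.39 with miR-125b, against 0.327 and 0.497 with miR-Neg. Of the 14 B-cell precursor markers 11 were well above background on all 8 arrays, while Rag1, Rag2 and Ighm were so on none. In a culture, a share of other cells and a change within the cells cannot be told apart here, and the part of these genes in the results was not tested.

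The members with and without an ISRE match in their promoter had similar differences. In 70Z/3 the median difference between miR-125b and miR-Neg was 0.90 for the 12 tested members with a match (from 0.29 to 2.65) and 1.04 for the 10 without (from 0.18 to 1.58). Of those with a match, Ifit1, Ifit3 and Rsad2 had passed the intensity filter only through 70Z/3 with miR-125b, and none of those without had. The 2.65 is that of Rsad2, with 1 miR-Neg array not well above background, and is not a measured size. Between the lines with miR-Neg the median difference was −1.58 for those with a match and −1.90 for those without. Gbp2, with a match, and Cmpk2, without, had passed the filter only through 70Z/3. The ranges overlapped widely, no test was made of this split, and 11 of the 37 members are not in it for want of a promoter in the table used.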

How the data were processed

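Total RNA of 8 samples was hybridised to 1 slide of the Agilent mouse 8x60K design in one colour. Per the file headers, the authors' scanner software was Agilent Feature Extraction 10.7.3.1, and its processed intensity is background-subtracted and spatially detrended. Groups lie in separate slide columns, and a column effect cannot be told apart from a group effect. The slide row follows the replicate number. The deposited series table gives intensity on a linear scale for the same arrays, normalized between arrays by a method not given in the sources used here (column medians 14.64 to 14.71, correlation with the scanner values 0.9973 to 1 on the log2 scale), and served as an alternative.

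Control spots and 140 to 203 outlier spots per array were left out, no spot was saturated, and repeated spots were averaged by probe. Values are log2 of the deposited intensity, less the 75th percentile of that array. RefSeq (GRCm38.p6) named probes by accession (26413), symbol (3859) or older symbol (735), and 24674 kept the name in the file. Testing required a probe that both arrays of some group showed well above background, and a gene's brightest such probe was used (18792 genes). limma 3.58.1 in R 4.3.3 fitted 4 group means to all 8 arrays with eBayes (3.84 prior degrees of freedom) and Benjamini-Hochberg adjustment at 0.05. The fit was tested on simulated data. Where no probe of a gene was well above background in the dimmer group, the fold is a bound, from the brighter group's mean over a floor for the dimmer one. That floor averages, over arrays, the lowest value well above background or the probe's own value if higher.

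The members and the other gene lists were chosen with earlier results of these data known. All 37 members are named, and values of the signalling genes and markers are given from lists taken whole, with examples picked after their values were seen. Nothing beyond the replicate numbers says that arrays of a group came from separate cultures, other than the 2 independent experiments of the design text. Same-numbered arrays deviated together from their group means (r from 0.37 to 0.65 over the 6 pairs of groups), and all 6 exceed 0.1, so replicate numbers count as pairs here. The fit without a block is reported. The 10 alternatives were normexp background, quantile normalization, another percentile, the series table, other filters and probe rules, an intensity trend, a replicate block over all arrays or within each line, and, beside these, leaving out each array. The values of 1 signalling gene are not reported here.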

Additional observations from a re-analysis of the deposited data

Results flagged for a closer look

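Of the 23 members well above background on all 8 arrays, 4 had miR-125b and miR-Neg arrays that differed one way in both pairs of 18-81 and the other way in both pairs of 70Z/3, against 25.7% of such genes, so the share is no larger than among all genes. The difference of the responses, 18-81 minus 70Z/3, was −0.66 ± 0.38 for Ifitm2, −0.64 ± 0.46 for Irgm1, −0.43 ± 0.39 for Irgm2 and 0.66 ± 0.53 for Iigp1. In Ifitm2 the pair differences were −0.13 and −0.12 in 18-81, against 0.38 and 0.68 in 70Z/3. None of the 4 passed the test of the difference itself (limma, adjusted p = 0.931 for each), and the 18-81 differences were smaller than their standard errors. Of all 33 tested members 7 showed this, against 24.1% of all genes. The other 3 were Ifit3, Cmpk2 and Gbp6, each with arrays not well above background.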

How the results depend on the processing

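Between the duplexes, 0 members passed the threshold in either line, on average or for the difference of responses, in any of the 10 alternatives or the 8 fits without 1 array, and the members' median in 70Z/3 kept its sign in the 7 alternatives in which it was recomputed and in the 8 fits. That median ranged from 0.46 to 1.60 when 1 array was left out, against 1.04, and the difference of responses from −1.69 to −0.51, against −1.10. For the lines it ranged from −1.83 to −0.88 with 1 array left out, against −1.30, and was −0.75 with no filter on intensity. The number of members past the threshold between the lines was 10 to 21 over all alternatives, against 15. With the replicate block it was 19, and 21 with the replicate block within each line, while 6723 and 6630 of all genes passed with these blocks, against 4070 without. With only probes above background on all 8 arrays, 1869 genes passed. Up to 3 members passed as higher in 18-81, against 0 as reported. The paired fits changed no call between the duplexes. In 70Z/3, 1 gene of the series passed with the block within each line, 1 with normexp, and 2 without miR-Neg replicate 2. Single members changed sign only in small differences. In 70Z/3, leaving out 1 array gave −0.09 to 0.59 for Parp9 and −0.10 to 0.85 for Zbp1. Between the lines it gave −0.21 to 0.26 for Dtx3l, −0.45 to 0.22 for Parp9, −0.04 to 0.80 for Ifi203, −0.19 to 0.56 for Ifi204 and −0.42 to 0.66 for Sp100. Dtx3l was also −0.12 with the mean of all probes, and Sp100 −0.09 with normexp. The cause was not tested. Signal over background limits the members below it on 18-81 arrays, whose differences there are bounds at most.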
